A study of Caenorhabditis elegans with 9 samples.

Results

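Argonaute proteins bind small RNAs and use them to find matching transcripts. The mRNA levels of 8 Argonaute genes of *Caenorhabditis elegans*, *csr-1*, *prg-1*, *wago-1*, *wago-4*, *ergo-1*, *rde-1*, *alg-1* and *alg-2*, were compared between animals that lack either HRDE-1, a nuclear Argonaute of the germline, or HRDE-2, a germ granule protein that acts with it, and wild-type animals. The genes were listed by name, without *hrde-1* itself and its somatic counterpart *nrde-3*, and were found by their gene identifiers. All 8 were among the 31106 genes of the count tables and among the 12141 genes that passed the filter on low counts. The question was whether the mRNA of other Argonautes changes when HRDE-1 or HRDE-2 is lost.

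Polyadenylated RNA was sequenced from *hrde-2(qe20)* (strain FD53), *hrde-1(tm1200)* (strain USC661) and wild-type (strain N2) animals, with 3 libraries of each genotype and 9 in all. All animals were synchronized 1-day-old adults kept at the same temperature, and whole worms were lysed in bulk, described as biological triplicates. In whole-worm RNA, fewer cells of a kind and less RNA per cell cannot be told apart, and the labels give a single strain for each mutant. The headers of the *hrde-2* count tables carry another name than the strain on the label, and which strain was sequenced was not resolved.

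As background, the 8 Argonautes stand at different steps of small RNA silencing. CSR-1, WAGO-1 and WAGO-4 bind 22G-RNAs, the secondary small RNAs made by RNA-dependent RNA polymerases in the germline. CSR-1 carries those that match expressed germline genes, WAGO-1 those that match silenced genes, and WAGO-4 acts in the inheritance of RNA interference from parent to progeny. PRG-1 binds piRNAs, ERGO-1 binds the 26G-RNAs of oocytes and embryos, and RDE-1 binds the primary small interfering RNAs cut from double-stranded RNA. ALG-1 and ALG-2 carry microRNAs and act mostly in the body.

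Library totals lay between 5801326 and 11884233 counts. Levels are given below as CPM, counts per 1000000 of the library total after TMM scaling, and the 8 genes had between 184 and 7268 counts in a library. Wild-type replicate 1 stood apart: its log2 CPM correlated at r = 0.935 and r = 0.937 with the other wild-type libraries, which correlated at 0.979 with each other, and it held the lowest CPM of the 9 libraries for 6 of the 8 Argonautes. Some results are given with and without it, and others as a range over fits that each left out 1 library. *hrde-1* mRNA was at 108 to 143.6 CPM in the *hrde-1* libraries, against 200.4 to 354.7 CPM in wild-type, and *hrde-2* mRNA at 14.3 to 19.3 CPM in the *hrde-2* libraries, against 23.0 to 52.1 CPM in wild-type, so both genes were lowest in the libraries labelled as their mutant. The germline was present in all libraries, but its markers also set wild-type replicate 1 apart. In wild-type replicates 1, 2 and 3 the germline markers summed to 2177, 3697 and 3118 CPM. The oocyte and eggshell markers summed to 2757, 5826 and 5280 CPM there, and the sperm genes to 47.5, 19.1 and 14.9 CPM. The sum of 12 germline markers was 3801 to 4775 CPM in *hrde-2*, 3291 to 4049 CPM in *hrde-1* and 2177 to 3697 CPM in wild-type, while 10 sperm genes that passed the filter and 2 that did not summed to 200.2 to 254.2 CPM in *hrde-2*, 62.0 to 92.2 CPM in *hrde-1* and 14.9 to 47.5 CPM in wild-type. All 10 of these sperm genes were called higher in *hrde-2* than in wild-type, where 7.57% of all genes were, and 3 of 10 were called higher in *hrde-1* than in wild-type, where 1.24% of all genes were. The filter keeps a gene that is high in a single genotype, so some of these genes passed it through the mutants. *fer-1*, for example, was at 0.358 to 0.525 CPM in wild-type and 2.46 to 5.97 CPM in *hrde-2*. The count of 10 is therefore partly set by the filter. Of 8 intestine markers, 3 were called lower in *hrde-2*, where 4.25% of all genes were, and the sum of the 8 was 24590 to 36910 CPM there, against 42790 to 60040 CPM in wild-type. Of the other marker lists, 1 of 12 oocyte and eggshell genes was called lower in *hrde-2* than in wild-type and no muscle, hypodermis or neuron marker was called (5 of 8 muscle markers, 0 of 6 hypodermis markers and 0 of 8 neuron markers had an unadjusted p under 0.05 in edgeR, where 27.8% of all genes did). The oocyte and eggshell genes summed to 4130 to 5524 CPM in *hrde-2*, 6387 to 6811 CPM in *hrde-1* and 2757 to 5826 CPM in wild-type. Of their log2 fold changes 11 of 12 were above 0 in *hrde-1* against wild-type, where 47.7% of all genes were. Between the mutants 0 of 12 were, where 49.2% of all genes were. In these comparisons 0 and 1 of the 12 were called, where 1.55% and 5.67% of all genes were. DESeq2 was not read for these lists.

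To compare genes with each other, CPM was divided by the length of the counted exons in kb. On this scale *wago-1* was the highest of the 8 in every genotype, with 169.5 ± 22.8 CPM per kb in *hrde-2*, 162.3 ± 19.7 CPM per kb in *hrde-1* and 113.1 ± 36.9 CPM per kb in wild-type (mean ± SD, n = 3 each). It was followed by *csr-1* (96.5, 73.8 and 64.7 CPM per kb in *hrde-2*, *hrde-1* and wild-type), *prg-1* (81.8, 68.1 and 49.4 CPM per kb) and *ergo-1* (37.8, 49.9 and 32.2 CPM per kb). The microRNA Argonautes were lowest, *alg-2* at 11.1, 15.6 and 11.6 CPM per kb and *alg-1* at 5.58, 7.85 and 6.69 CPM per kb in the same 3 genotypes. In each genotype all libraries of *wago-1* lay above all libraries of the other 7 genes.

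In both *hrde-1* and wild-type *wago-4* was the fifth of the 8 by its per-length mean, with 36.9 ± 2.39 and 31.6 ± 2.99 CPM per kb, ahead of *rde-1* with 17.3 ± 2.81 and 18.3 ± 10.2 CPM per kb. In *hrde-2*, *wago-4* stood at 18.3 ± 3.28 CPM per kb and *rde-1* at 18.7 ± 2.10 CPM per kb, so that their means changed places, with overlapping libraries. The order of the other genes by per-length mean was shared by all 3 genotypes. Some neighbours in it could not be separated: the libraries of *csr-1* and *prg-1* overlapped in both mutants, those of *prg-1* and *ergo-1*, and of *ergo-1* and *wago-4*, overlapped in wild-type, and those of *rde-1* and *alg-2* overlapped in *hrde-1* and wild-type.

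**Figure D1:**
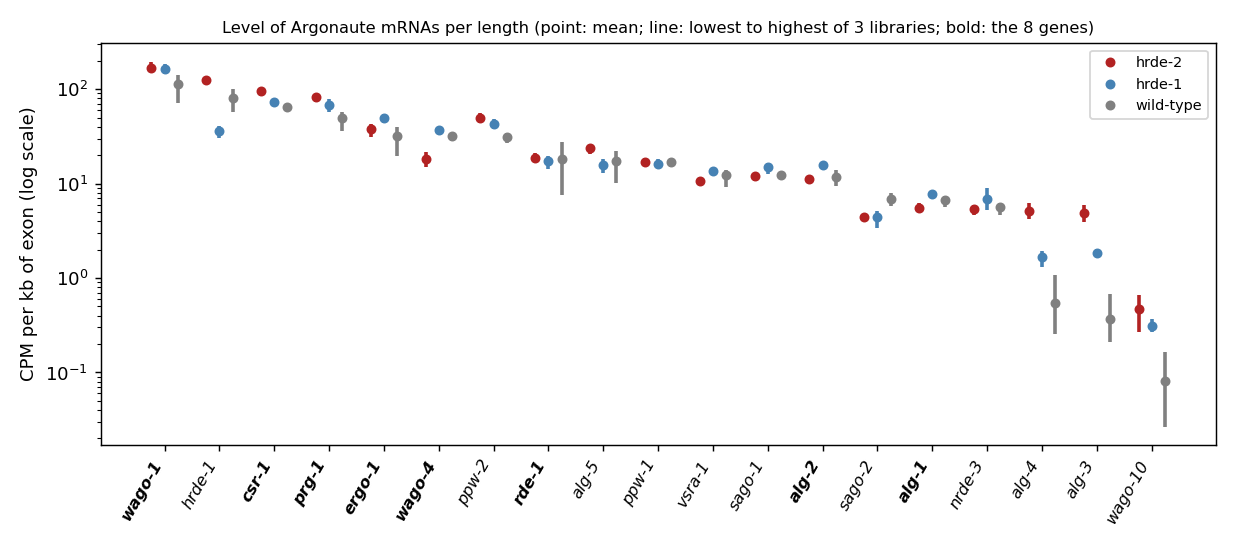
Level of Argonaute mRNAs in CPM per kb of counted exon (log axis) for *hrde-2*, *hrde-1* and wild-type, with the point at the mean and the line from the lowest to the highest of 3 libraries; the 8 genes described here are in bold. *wago-4* is at 18.3 CPM per kb in *hrde-2*, against 36.9 in *hrde-1* and 31.6 in wild-type, while *alg-3* and *alg-4* are above wild-type in both mutants.

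Across the 8 genes, *csr-1* and *prg-1* were higher and *wago-4* was lower in *hrde-2* than in wild-type, no gene was called in *hrde-1* against wild-type, and *wago-4* was lower in *hrde-2* than in *hrde-1*. In *hrde-2* against wild-type 3 of the 8 genes were called at an adjusted p under 0.05 (edgeR quasi-likelihood test, adjusted over all genes tested), where 11.8% of all genes tested were called. The 2 genes called higher compare with 7.57% of all genes and the 1 called lower with 4.25%, and 4 of 8 had an unadjusted p under 0.05, where 27.8% of all genes did. The median log2 fold change of the 8 genes was 0.13, against -0.097 over all genes. In *hrde-1* against wild-type 0 of 8 were called with edgeR, where 1.55% of all genes were called. Without adjustment, 1 of 8, *ergo-1*, had a p under 0.05 there in edgeR, where 18.2% of all genes did. The Wald test of DESeq2 called 0 of 8, with 4 at an unadjusted p under 0.05. The share of all genes in DESeq2 is not given here, so nothing particular to the Argonautes is read from that 4. In *hrde-2* against *hrde-1*, the test of the difference between the mutants, 1 of 8 was called, where 5.67% of all genes were called. It was called lower, as 2.45% of all genes were, and 4 of 8 had an unadjusted p under 0.05, where 20% of all genes did. These shares of all genes depended on wild-type replicate 1. Without it the genes called numbered 2797 in place of 1435 in *hrde-2* against wild-type, 1658 in place of 188 in *hrde-1* against wild-type and 1617 in place of 688 between the mutants, while the 8 Argonautes gave the same counts of 3, 0 and 1. Leaving out other libraries gave as few as 0 calls among the 8. In *hrde-2* against wild-type *csr-1* was called in 7, *prg-1* in 9 and *wago-4* in 13 of 19 alternative settings.

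The mutants share their wild-type libraries, so their comparisons with wild-type are not independent of each other. In *hrde-1* against wild-type, 7 of 8 log2 fold changes were above 0, where 47.7% of all genes were above 0, although *csr-1*, *wago-4* and *alg-1* turned below 0 when libraries were scaled by germline markers, an alternative added after the data were seen. The libraries of 6 genes did not overlap, where those of 22.8% of all genes did not. The median was 0.33, against -0.031 over all genes, and without wild-type replicate 1 it was 0.31 with 7 of 8 above 0. In *hrde-2* against wild-type, 5 of 8 were above 0, of which *ergo-1* and *rde-1* turned with that scaling, where 43.4% of all genes were above 0, and 4 did not overlap, where 32.2% of all genes did not. Without wild-type replicate 1 the median of that comparison was -0.026 and 4 of 8 were above 0. Between the mutants 4 of 8 were above 0, where 49.2% of all genes were, and the libraries of 5 genes did not overlap, where those of 32.5% of all genes did not.

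**Figure D2:**
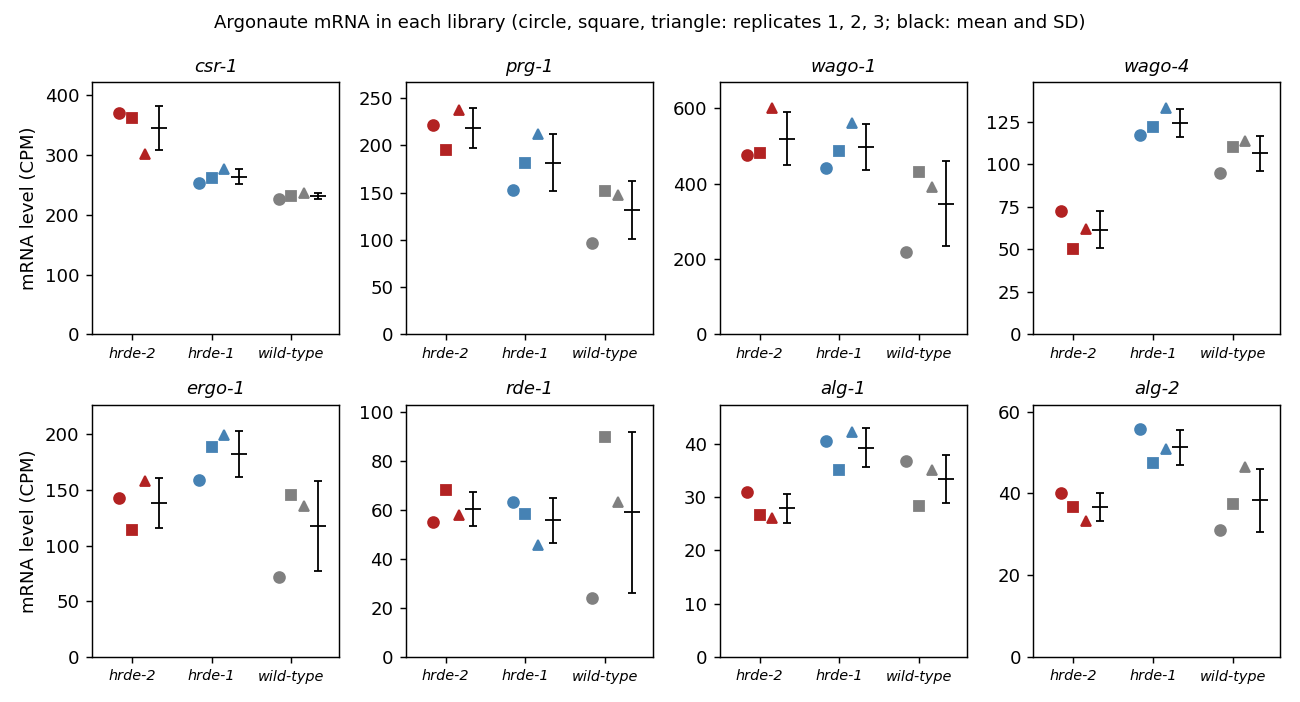
mRNA level in CPM of the 8 Argonautes in each library of *hrde-2*, *hrde-1* and wild-type (circle, square and triangle for replicates 1, 2 and 3), with the mean and SD in black; every axis starts at 0. The *wago-4* libraries of *hrde-2* (50.4 to 72.5 CPM) lie below all others, the *csr-1* libraries of *hrde-2* (302.1 to 370.4 CPM) lie above all others, and wild-type replicate 1 is the lowest point in 6 panels.

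The gene whose level set the 2 mutants apart was *wago-4* (WBGene00010263), on the plus strand of chromosome II from 12919551 to 12923377. WAGO-4 is a germline Argonaute that sits in the granules of the helicase ZNFX-1. Its mRNA reached 72.5, 50.4 and 61.9 CPM in the *hrde-2* libraries, 117.4, 122.1 and 133 CPM in those of *hrde-1*, against 94.8, 110.3 and 113.8 CPM in wild-type. All 3 *hrde-2* libraries were below the other 6, and the *hrde-1* libraries were slightly above every wild-type library.

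In *hrde-2* against *hrde-1* the log2 fold change of *wago-4* was -1.01 (SE 0.19, 95% interval -1.42 to -0.60), a ratio of 0.496, and it ranked at 150 among the 12141 p-values of that comparison (edgeR quasi-likelihood test, adjusted p = 0.0109). Against wild-type the *hrde-2* value was -0.79 on the log2 scale (SE 0.19, 95% interval -1.19 to -0.38, adjusted p = 0.0169), a ratio of 0.580. The *hrde-1* animals differed from wild-type by 0.22 (SE 0.19, 95% interval -0.18 to 0.63, adjusted p = 0.535), which did not pass. The call against *hrde-1* was lost without *hrde-1* replicate 2 (adjusted p = 0.0517), *hrde-2* replicate 2 (0.0899) or *hrde-2* replicate 3 (0.0504), with a log2 fold change of -1.09 to -0.88 when any 1 library was left out. Set against wild-type, *wago-4* was not called without wild-type replicate 3 (adjusted p = 0.0719), *hrde-1* replicate 2 (0.0545), *hrde-2* replicate 2 (0.106) or *hrde-2* replicate 3 (0.0560) and in the fit of only the 6 libraries (0.0700), with a log2 fold change of -0.85 to -0.66 when any 1 library was left out. Without wild-type replicate 1 both calls held, with adjusted p = 7.859e-04 against *hrde-1* and 0.00387 against wild-type.

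*csr-1* (WBGene00017641, chromosome IV, 7957580 to 7962129, plus strand) encodes the Argonaute that cuts its targets and marks expressed germline genes. Its mRNA was at 370.4, 362.6 and 302.1 CPM in *hrde-2*, 252.8, 261.9 and 277.1 CPM in *hrde-1*, against 226.7, 231.7 and 235.8 CPM in wild-type. The 3 genotypes did not overlap at all, with *hrde-2* highest and wild-type lowest, and the wild-type libraries varied little, with a coefficient of variation of 1.96%. *csr-1* was 0.58 higher in *hrde-2* than in wild-type on the log2 scale (SE 0.17, 95% interval 0.21 to 0.94, edgeR adjusted p = 0.0426), a ratio of 1.49. The call lay close to the threshold and was kept in only 2 of the 9 fits that left out a library, those that dropped replicate 1 of wild-type or of *hrde-1*. It was lost when wild-type replicate 2 (adjusted p = 0.0802) or 3 (0.120) was dropped, and likewise for *hrde-1* replicate 2 (0.0666) or 3 (0.0666), or *hrde-2* replicate 1 (0.124), 2 (0.159) or 3 (0.0515), with values of 0.54 to 0.66 on the log2 scale in all 9 fits. The difference of 0.39 between *hrde-2* and *hrde-1* (SE 0.17, 95% interval 0.024 to 0.75, adjusted p = 0.217) and that of 0.19 between *hrde-1* and wild-type (SE 0.17, adjusted p = 0.564) did not pass.

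*prg-1* (WBGene00004178, chromosome I, 7585324 to 7588367, minus strand) encodes the Piwi protein that binds piRNAs. It reached 221.9, 195.3 and 237.9 CPM in *hrde-2*, 152.6, 181 and 212.1 CPM in *hrde-1*, against 96.9, 151.8 and 147.4 CPM in wild-type. The *hrde-2* libraries were all above the wild-type ones, and the lowest *hrde-1* library was barely above the highest wild-type library. The log2 fold change was 0.73 in *hrde-2* against wild-type (SE 0.22, 95% interval 0.26 to 1.19, edgeR adjusted p = 0.0464), and 0.46 in *hrde-1* against wild-type (SE 0.22, adjusted p = 0.280). The call was lost without wild-type replicate 3 (adjusted p = 0.0850), *hrde-1* replicate 2 (0.0602) or 3 (0.0618), or *hrde-2* replicate 1 (0.0996), 2 (0.0967) or 3 (0.135), with log2 fold changes of 0.63 to 0.86. The mutants differed by 0.26 (SE 0.22, 95% interval -0.20 to 0.73, adjusted p = 0.568).

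*wago-1* (WBGene00011061, chromosome I, 7235371 to 7238790, plus strand) had 477.4, 481.6 and 600.5 CPM in *hrde-2*, 443, 487.7 and 562.4 CPM in *hrde-1*, against 217.9, 430.1 and 392 CPM in wild-type. Both mutants were above all wild-type libraries and overlapped with each other. WAGO-1 is a cytoplasmic germline Argonaute that, like HRDE-1, carries 22G-RNAs against silenced genes. Its log2 fold changes of 0.58 in *hrde-2* (SE 0.24, 95% interval 0.061 to 1.11, edgeR adjusted p = 0.134) and 0.52 in *hrde-1* against wild-type (SE 0.24, 95% interval -0.0013 to 1.04, adjusted p = 0.275) did not pass, and the mutants differed by 0.063 (95% interval -0.46 to 0.58, adjusted p = 0.928). Without wild-type replicate 1 the log2 fold changes against wild-type were the lowest of those with a library left out, 0.42 in *hrde-2* and 0.31 in *hrde-1*.

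The 2 Argonautes of primary small interfering RNAs did not pass the threshold in any comparison. *ergo-1* (WBGene00019971, chromosome V, 1008803 to 1018350, plus strand) was at 142.7, 113.9 and 157.7 CPM in *hrde-2*, 159.3, 188.2 and 199.7 CPM in *hrde-1*, against 71.7, 145.8 and 135.6 CPM in wild-type. The *hrde-1* libraries were the 3 highest, and those of *hrde-2* overlapped with wild-type. Its log2 fold change was 0.63 for *hrde-1* over wild-type (SE 0.25, 95% interval 0.081 to 1.18, edgeR adjusted p = 0.221), 0.23 for *hrde-2* over wild-type (SE 0.25, 95% interval -0.32 to 0.78, adjusted p = 0.601) and -0.40 between the mutants (SE 0.25, 95% interval -0.95 to 0.15, adjusted p = 0.431). When any 1 library was left out, the values over wild-type were 0.41 to 0.84 for *hrde-1* and 0.053 to 0.43 for *hrde-2*.

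*rde-1* (WBGene00004323, chromosome V, 9987916 to 9991642, minus strand) is needed for interference by injected or fed double-stranded RNA. It gave 55.0, 67.9 and 57.9 CPM in *hrde-2*, 63.0, 58.4 and 45.5 CPM in *hrde-1*, against 24.1, 89.4 and 63.2 CPM in wild-type. Its spread within wild-type, from the lowest to the highest of all 9 libraries, covered every mutant library. The log2 fold changes were 0.029 in *hrde-2* (SE 0.35, 95% interval -0.72 to 0.78, edgeR adjusted p = 0.966) and -0.086 in *hrde-1* against wild-type (SE 0.35, 95% interval -0.84 to 0.67, adjusted p = 0.914), and these intervals leave room for changes larger than those called for *csr-1* and *prg-1*.

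The microRNA Argonautes gave similar differences between the mutants. *alg-1* (WBGene00000105, chromosome X, 13949114 to 13956261, plus strand) was at 31.0, 26.6 and 26.03 CPM in *hrde-2*, 40.5, 35.1 and 42.2 CPM in *hrde-1*, against 36.9, 28.4 and 35.1 CPM in wild-type. *alg-2* (WBGene00000106, chromosome II, 873176 to 879001, plus strand) was at 40.1, 36.7 and 33.1 CPM in *hrde-2*, 55.8, 47.3 and 50.7 CPM in *hrde-1*, against 31.1, 37.4 and 46.4 CPM in wild-type. For both genes all *hrde-2* libraries were below all *hrde-1* libraries, and the *hrde-2* and wild-type libraries overlapped. In *hrde-2* against *hrde-1* the log2 fold change was -0.49 for *alg-1* (SE 0.19, 95% interval -0.90 to -0.087, edgeR adjusted p = 0.155) and -0.49 for *alg-2* (SE 0.20, 95% interval -0.91 to -0.060, adjusted p = 0.185), so neither passed when all 9 libraries were fitted.

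Deviations of same-numbered *hrde-1* and *hrde-2* libraries from their group means correlated only weakly (0.145, 0.114 and 0.249). Libraries of unlike number were not compared in this way, and the labels give no pairing. The mutants were also compared with the replicate number as a block. With the block in the fit of all 9 libraries *wago-4* was again the only gene of the 8 called. The fit with the block and only the 6 mutant libraries was an alternative added after the data were seen. In it 3 of the 8 were called lower in *hrde-2*: *wago-4* (log2 fold change -1.03, adjusted p = 5.451e-04), *alg-1* (-0.49, adjusted p = 0.0337) and *alg-2* (-0.49, adjusted p = 0.0233). The fit of the 6 mutant libraries without the block called *wago-4* and *alg-2* (adjusted p = 0.00169 and 0.0432). The share of all genes called in these fits of 6 libraries is not given here, so nothing particular to the Argonautes is read from these counts. Against wild-type neither microRNA Argonaute passed: *alg-1* differed by -0.26 (SE 0.19, adjusted p = 0.402) and *alg-2* by -0.061 (SE 0.20, adjusted p = 0.876) in *hrde-2*, and by 0.23 (SE 0.19, adjusted p = 0.523) and 0.42 (SE 0.20, adjusted p = 0.276) in *hrde-1*. The per-length ratio of *alg-1* to *alg-2* was 0.478 to 0.517 in *hrde-2*, 0.477 to 0.548 in *hrde-1* and 0.499 and 0.5 in wild-type replicates 2 and 3, and 0.781 in wild-type replicate 1.

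**Figure D3:**
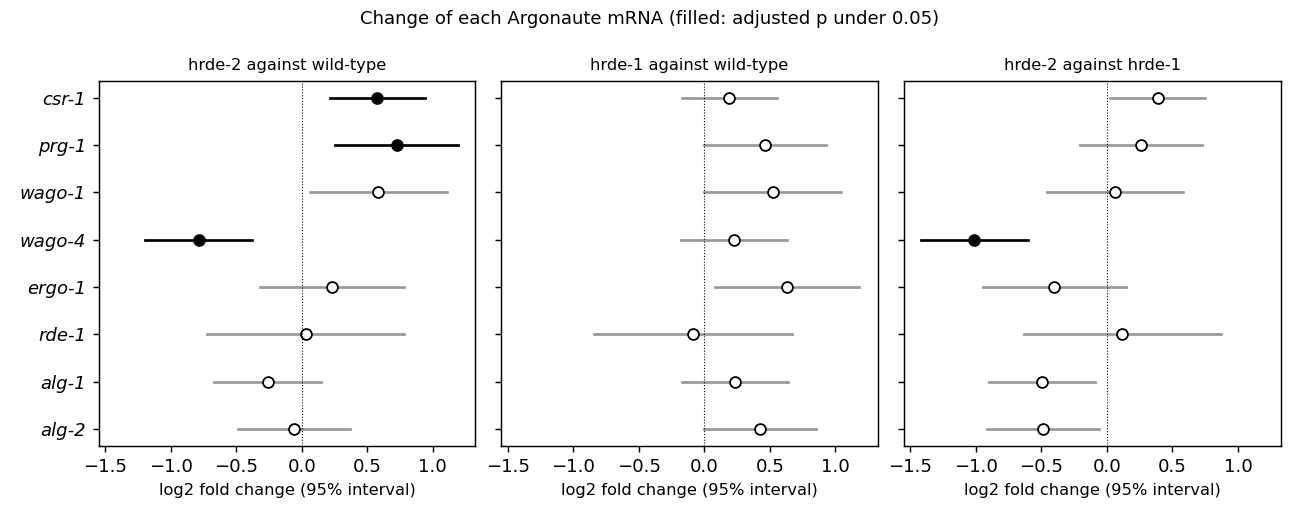
Log2 fold change with its 95% interval for the 8 Argonautes in *hrde-2* against wild-type, *hrde-1* against wild-type and *hrde-2* against *hrde-1* (edgeR, 9 libraries); filled points have an adjusted p under 0.05. Filled are *csr-1* (0.58), *prg-1* (0.73) and *wago-4* (-0.79) on the left and *wago-4* (-1.01) on the right, and no point is filled in the middle.

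Since the sum of germline markers differed between the genotypes, each Argonaute was also expressed as a percentage of the summed CPM of the 12 germline markers. In *hrde-2* against wild-type 10 of the 12 were above 0, and *nos-2* (-0.87) and *him-3* (-0.20) were below. Called higher were 2, *glh-1* (0.85) and *cgh-1* (0.65), where 7.57% of all genes were. A few genes weighed most: *cgh-1*, *car-1* and *gld-1* had means of 740.2, 629.1 and 446 CPM in wild-type, within a mean sum of 2997 CPM. *wago-4* was at 1.74, 1.33 and 1.30% of that sum in *hrde-2*, 3.56, 3.48 and 3.29% in *hrde-1* and 4.35, 2.98 and 3.65% in wild-type. It remained lowest in all 3 *hrde-2* libraries. *csr-1* was at 8.25 ± 1.70% in *hrde-2*, 7.33 ± 0.437% in *hrde-1* and 8.08 ± 2.12% in wild-type (SD, n = 3), and all 3 genotypes overlapped. *prg-1* was at 5.15 ± 0.172%, 5.01 ± 0.330% and 4.43 ± 0.313% in *hrde-2*, *hrde-1* and wild-type, and the *hrde-2* libraries stayed above all wild-type libraries. *alg-1* was at 0.664 ± 0.105% in *hrde-2*, 1.09 ± 0.121% in *hrde-1* and 1.19 ± 0.466% in wild-type, and *alg-2* at 0.874 ± 0.156%, 1.43 ± 0.233% and 1.31 ± 0.260% in the same genotypes. Like *wago-4*, both were lowest in the 3 *hrde-2* libraries on this scale, although their CPM overlapped between *hrde-2* and wild-type. The sum that each gene was divided by was larger in *hrde-2* (3801 to 4775 CPM) than in wild-type (2177 to 3697 CPM). The share of all genes whose libraries separate on this scale was not counted, so nothing particular to these genes is read from it.

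When the edgeR fit was scaled by this sum, the median log2 fold change of all genes moved to -0.64 in *hrde-2* against wild-type, -0.35 in *hrde-1* against wild-type and -0.24 between the mutants. On that scale the *hrde-2* and wild-type animals differed by 0.031 in *csr-1* (adjusted p = 0.926) and by 0.22 in *prg-1* (adjusted p = 0.293), and both calls were lost. *wago-4* was still called lower in *hrde-2*, by -1.33 against wild-type (adjusted p = 0.00356) and by -1.24 against *hrde-1* (adjusted p = 0.0174), and *alg-1* was called lower against wild-type (-0.84, adjusted p = 0.0391). Of the 12141 genes tested, 3402 were called lower and 540 higher in *hrde-2* against wild-type on that scale. Between the mutants 82 were called lower and 11 higher. This scaling cannot tell the amount of germline tissue from the level of the markers themselves. The part that the amount of germline tissue takes in the levels of *csr-1* and *prg-1* was not tested.

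**Figure D4:**
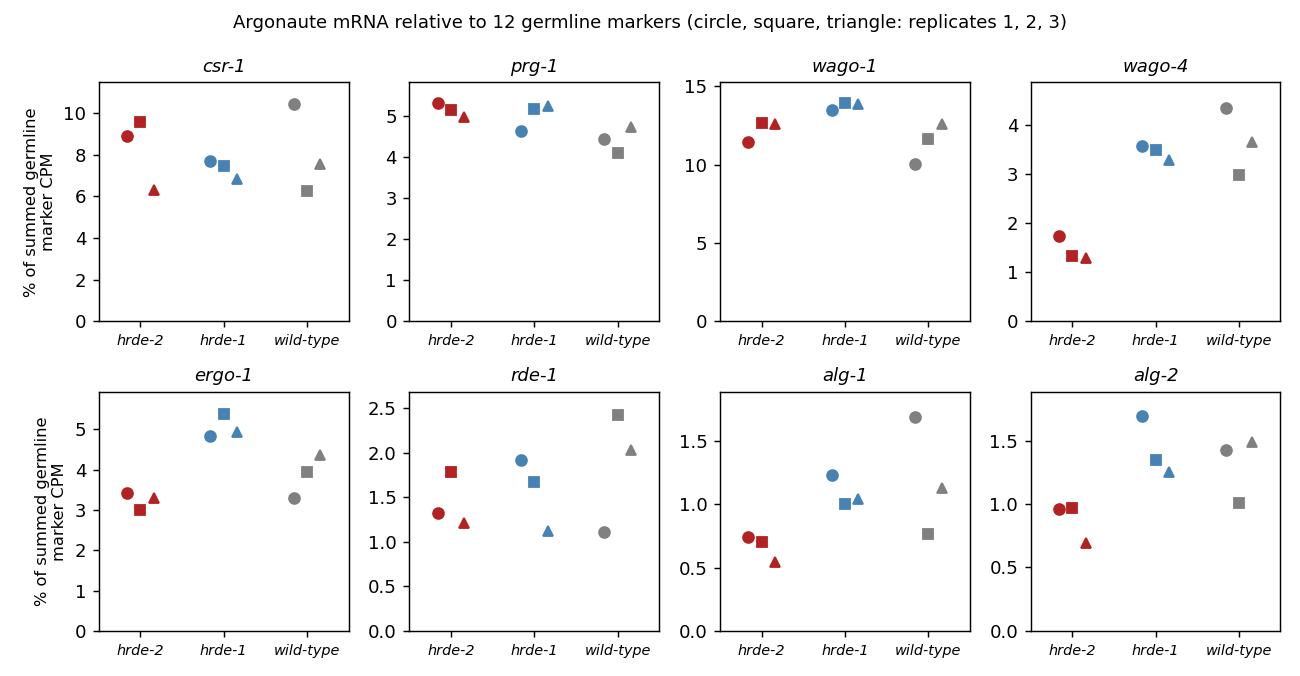
Each Argonaute mRNA as a percentage of the summed CPM of 12 germline markers in the libraries of *hrde-2*, *hrde-1* and wild-type (circle, square and triangle for replicates 1, 2 and 3); every axis starts at 0. *wago-4* is at 1.30 to 1.74% in *hrde-2*, below its 3.29 to 3.56% in *hrde-1* and 2.98 to 4.35% in wild-type, while the genotypes overlap for *csr-1*.

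Ratios between Argonautes within a library do not depend on how libraries were scaled. Per length, the ratio of *wago-1* to *wago-4* was 7.23, 10.5 and 10.7 in *hrde-2*, 4.15, 4.39 and 4.64 in *hrde-1* and 2.53, 4.29 and 3.79 in wild-type. The ratio of *csr-1* to *wago-4* was 4.81, 6.77 and 4.60 in *hrde-2*, 2.03, 2.02 and 1.96 in *hrde-1* and 2.25, 1.98 and 1.95 in wild-type. In both ratios every *hrde-2* library stood above every other library, and for *csr-1* over *wago-4* the *hrde-1* and wild-type libraries overlapped. Such ratios show unequal change and not which of the genes changed.

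Of the per-length sum of 20 Argonaute genes, *wago-4* made up 2.62 ± 0.424% in *hrde-2*, 6.30 ± 0.0787% in *hrde-1* and 6.27 ± 0.787% in wild-type. The 8 genes together held 62.4, 61.7 and 64.9% of that sum in *hrde-2*, 72.5, 73.5 and 74.99% in *hrde-1* and 61.4, 64.4 and 65.5% in wild-type. The *hrde-1* libraries stood above the others, and in them *hrde-1* mRNA itself held 6.11 ± 0.449% of the sum, against 15.6 ± 1.35% in wild-type. In *hrde-2* it held 17.9 ± 0.688%.

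Among the 12 other Argonaute genes found in the tables, 11 passed the filter. In *hrde-2* against wild-type 4 of the 11 were called higher, where 7.57% of all genes were, and 0 were called lower (edgeR; 1 was lower at an unadjusted p under 0.05, and DESeq2 was not counted for this list). *alg-3* and *alg-4* encode the Argonautes that bind 26G-RNAs during spermatogenesis. *alg-3* was at 12.9 to 19.3 CPM in *hrde-2*, 5.61 to 6.69 CPM in *hrde-1* and 0.686 to 2.23 CPM in wild-type, and *alg-4* at 14.9 to 21.7 CPM in *hrde-2*, 4.52 to 6.72 CPM in *hrde-1* and 0.896 to 3.80 CPM in wild-type. The genotypes did not overlap for either gene, with *hrde-2* highest and wild-type lowest, as for the summed sperm markers given above, whose part in these levels was not tested.

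The log2 fold change against wild-type was 3.73 for *alg-3* (SE 0.42, edgeR adjusted p = 2.869e-04) and 3.25 for *alg-4* (SE 0.47, adjusted p = 9.26e-04) in *hrde-2*. In *hrde-1* it was 2.32 for *alg-3* (SE 0.42, adjusted p = 0.0127) and 1.62 for *alg-4* (SE 0.47, adjusted p = 0.116). The *hrde-1* call of *alg-3* was lost without wild-type replicate 2 (adjusted p = 0.0605) or 3 (0.0573) and in the fit of the 6 libraries compared (0.0880). It was the only one of the 11 called higher in that comparison, where 1.24% of all genes were. Between the mutants, where 3.22% of all genes were called higher in *hrde-2*, *alg-3* differed by 1.40 (SE 0.36, adjusted p = 0.0395) and *alg-4* by 1.64 (SE 0.42, adjusted p = 0.0407), and both of these calls were lost when any 1 of the 6 mutant libraries was left out (adjusted p of 0.0786 to 0.191 and of 0.0793 to 0.190) and with the replicate block in the fit of 9 libraries (0.0514 and 0.0609). The other genes called in *hrde-2* against wild-type were *ppw-2*, which encodes the germline Argonaute WAGO-3, and *wago-10*. *ppw-2* was at 142.8 to 180.8 CPM in *hrde-2*, 124.3 to 156.2 CPM in *hrde-1* and 87.1 to 111.7 CPM in wild-type (0.65 higher in *hrde-2* than in wild-type on the log2 scale, SE 0.19, edgeR adjusted p = 0.0407), and the call was lost on dropping any *hrde-2* replicate or replicate 2 or 3 of *hrde-1* or of wild-type (adjusted p of 0.0567 to 0.165). *wago-10* had 8 to 25 counts a library in *hrde-2* and 1 to 4 in wild-type (adjusted p = 0.0319), and its call was lost on dropping replicate 2 or 3 of any genotype (0.0522 to 0.137). With so few counts in wild-type, *wago-10* passed the filter through the mutant libraries.

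The proteins that make the small RNAs or work beside these Argonautes were read from 5 lists, of which 53 genes passed the filter. In *hrde-2* against wild-type 11.3% of them were called, near the 11.8% of all genes, with 5 higher and 1 lower, the lower being *hrde-2* itself. Higher were *rde-11*, a factor of exogenous RNA interference (log2 fold change 1.33, SE 0.28, edgeR adjusted p = 0.00786), *simr-1*, the Tudor domain protein of germ granules (0.88, SE 0.18, adjusted p = 0.00850), *znfx-1*, the helicase (0.92, SE 0.21, adjusted p = 0.0142), *glh-1*, the Vasa-like helicase that was also 1 of the 12 germline markers (0.85, SE 0.23, adjusted p = 0.0312), and *xpo-1*, an exportin (0.62, SE 0.19, adjusted p = 0.0453). *znfx-1* was at 65.0 to 107.1 CPM in *hrde-2*, 62.7 to 81.2 CPM in *hrde-1* and 42.5 to 49.7 CPM in wild-type. In *hrde-2* it lay above every wild-type library and *wago-4* below, while in *hrde-1* both genes lay above every wild-type library. Scaled by the germline markers, *rde-11* alone among these 5 kept its call (largest adjusted p over all settings 0.0361).

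By list, 0 of 14 piRNA partners were called in any of the 3 comparisons (edgeR). Without adjustment 4, 4 and 2 of the 14 had a p under 0.05 in *hrde-2* against wild-type, *hrde-1* against wild-type and *hrde-2* against *hrde-1*, where 27.8%, 18.2% and 20% of all genes did. In *hrde-2* against wild-type 1 of 8 microRNA partners, 1 of 13 partners of 26G-RNAs and exogenous RNA interference, 1 of 5 CSR-1 partners and 3 of 13 WAGO partners were called, where 11.8% of all genes were, and nothing particular to a list is read from these small counts. In *hrde-1* against wild-type 0 of 53 were called (edgeR), where 1.55% of all genes were, and 11 of 53 had an unadjusted p under 0.05, where 18.2% of all genes did. Between the mutants *glh-1* was called higher in *hrde-2* (0.97, SE 0.23, adjusted p = 0.0321) and *hrde-2* lower, 3.77% of the 53 against 5.67% of all genes. When 1 library was left out, the calls of *rde-11* and *simr-1* against wild-type held in all 9 fits. That of *znfx-1* was lost without wild-type replicate 3 (adjusted p = 0.0675) or *hrde-2* replicate 2 (0.0871), that of *glh-1* without wild-type replicate 3 or any *hrde-2* replicate (0.0511 to 0.105), and that of *xpo-1* without any *hrde-2* replicate, *hrde-1* replicate 2 or 3 or wild-type replicate 3 (0.0566 to 0.139). The *glh-1* call between the mutants was lost without *hrde-1* replicate 1 or 2 or any *hrde-2* replicate (0.0727 to 0.127).

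Over all 9 libraries the highest CPM of a gene exceeded the lowest by 1.62 times for *alg-1*, 1.63 times for *csr-1*, 1.80 times for *alg-2*, 2.46 times for *prg-1*, 2.64 times for *wago-4*, 2.76 times for *wago-1*, 2.78 times for *ergo-1* and 3.71 times for *rde-1*. Only 12.8% of all genes tested varied less than *alg-1* and 15.2% less than *csr-1* (SD of log2 CPM), whereas 60.2% varied less than *wago-4* and 63.9% less than *rde-1*. The profiles of the 8 genes were set beside each other by the root mean square difference of their log2 CPM, each centred on its own mean over the 9 libraries, as a description over libraries that share genotype and depth. The closest pair was *prg-1* and *wago-1* at 0.136, followed by *alg-1* and *alg-2* at 0.208, and the farthest were *wago-4* and *rde-1* at 0.697 and *prg-1* and *wago-4* at 0.695.

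Among all genes tested, those nearest in profile were *haf-3* and F13H8.2 for *csr-1* (0.0781 and 0.0856, where the median gene was at 0.504), *hcp-4* and Y41D4B.4 for *prg-1* (0.0823 and 0.0893), and F10C2.4 and *tcc-1* for *wago-1* (0.0527 and 0.0646). For *rde-1* the nearest were *nrde-4* and F55A12.5 (0.0824 and 0.0988), for *ergo-1* *cbd-1* and *mex-5* (both 0.101), for *alg-1* F13E6.1 and *sid-3* (0.103 and 0.106) and for *alg-2* Y45G5AM.9 and *glb-20* (0.118 and 0.12). *cbd-1*, an eggshell gene, was also on the list of oocyte markers. The nearest genes of *wago-4*, Y62H9A.5 and *clec-147*, were at 0.132 and 0.136, farther than the nearest genes of the other 7, where the median gene was at 0.589.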

How the data were processed

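Per the labels, polyadenylated RNA of whole adult worms was made into directional libraries. Single-end reads were trimmed with Trimmomatic 0.39, aligned with HISAT2 2.2.1 to WBcel235 and counted with featureCounts 2.0.1. The deposited values are raw counts per gene over exons, which the authors did not normalize. Per the file headers no strand option was set and reads on several genes or places were not counted, so antisense reads add to a gene and overlapping stretches lose reads: *prg-1* overlaps D2030.12 by 17 bp, *ergo-1* overlaps *pei-2* by 14 bp, both on the opposite strand, and *alg-1* overlaps K02B9.10 by 96 bp on the same strand. Ribosomal RNA genes held 19.4 to 31.4% of counts. Coordinates are those of the files, counted from 1.

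The test was that of edgeR 4.0.16 in R 4.3.3 (filterByExpr, TMM, robust quasi-likelihood test, genotype as the only term, 9 libraries), with Benjamini-Hochberg adjustment over 12141 genes, calls at 0.05 and 95% intervals. The biological coefficient of variation was 27.0%. DESeq2 1.42.0 was an alternative. The script was tested on simulated data. P-values set a difference between genotypes against the spread between libraries, estimated from all 9 libraries and moderated across genes. With a single strain of each mutant, they do not cover differences between strains of a genotype. No pair of replicates was a repeat.

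All 8 Argonautes are named. Named beside them are the targeted genes, other Argonautes and pathway partners that were called, and for each Argonaute the 2 tested genes nearest in centred log2 CPM (prior count 2). Marker genes and lists came from textbook knowledge. The members and lists were chosen with earlier results of these data known. Of 20 other Argonaute symbols 12 were matched. The labels do not say that equal numbers pair libraries. Deviations of same-numbered libraries from their group means correlated at 0.145, 0.114 and 0.249 between *hrde-2* and *hrde-1*, and between -0.253 and 0.199 for pairs with wild-type. Libraries of unlike number were not compared, so these values do not establish a pairing, and the replicate block was kept as an alternative only. Alternatives were other scalings, filters, tests, libraries in the fit, a replicate block and a threshold of 0.01.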

Additional observations from a re-analysis of the deposited data

Results flagged for a closer look

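In *hrde-2* against *hrde-1* the test of the difference between the mutants was passed by *wago-4* alone of the 8 Argonautes, with a log2 fold change of -1.01 (SE 0.19, edgeR adjusted p = 0.0109); all 3 *hrde-2* libraries were lower than all 3 *hrde-1* libraries. Of the other genes described, the mutants differed in *alg-3* (1.40, adjusted p = 0.0395), *alg-4* (1.64, adjusted p = 0.0407) and *glh-1* (0.97, adjusted p = 0.0321), each higher in all 3 *hrde-2* libraries than in all 3 *hrde-1* libraries. In this comparison 5.67% of all genes were called. The calls of *alg-3* and *alg-4* were lost when any 1 of the 6 mutant libraries was left out. Those of *wago-4* and *glh-1* were lost in some of these fits, as given above. The targeted genes also differed, with *hrde-1* at 1.80 (adjusted p = 0.00110) and *hrde-2* at -1.23 (adjusted p = 0.0239, and 0.0562 to 0.131 when any 1 of the 6 mutant libraries was left out).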

How the results depend on the processing

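The 3 calls among the 8 Argonautes in *hrde-2* against wild-type became 0 in the fit of only the 6 libraries compared, 0 at an adjusted p under 0.01 and 0 to 3 when 1 library was left out. The 1 call in *hrde-2* against *hrde-1* became 2 in the fit of the 6 libraries, 0 at an adjusted p under 0.01 and 0 to 1 when 1 library was left out. It became 3 in the fit of the 6 libraries with the replicate block, an alternative added after the data were seen. With the replicate block in the fit of 9 libraries 2 of 8 were called in *hrde-2* against wild-type, *csr-1* being lost (adjusted p = 0.0628). *csr-1* was also lost with no filter on low counts (0.112), and *prg-1* with library size alone (0.0550). In *hrde-1* against wild-type 0 of 8 were called with every setting. Some values changed sign, none of them called: *alg-2* in *hrde-2* against wild-type (0.0048 with at least 1 CPM in all libraries, 0.012 with 6 libraries, and -0.11 to 0.092 without 1 library), *rde-1* in *hrde-1* against wild-type (0.032 with the block, -0.43 to 0.38 without 1 library), *rde-1* in *hrde-2* against wild-type (-0.26 to 0.49) and between the mutants (-0.015 to 0.25), and *wago-1* between the mutants (-0.055 to 0.17). Scaling by germline markers also turned *csr-1* (-0.14), *wago-4* (-0.086) and *alg-1* (-0.12) in *hrde-1* against wild-type, *ergo-1* (-0.25) and *rde-1* (-0.37) in *hrde-2* against wild-type, and *wago-1* (-0.17) and *rde-1* (-0.12) between the mutants. The cause was not tested. Of 464 values of the 8 genes under alternatives, 408 kept their direction and side of the threshold. Counts of all genes called moved more: without wild-type replicate 1 they were 2797 in *hrde-2* and 1658 in *hrde-1* against wild-type and 1617 between the mutants, against 1435, 188 and 688, and over the other settings they ranged from 494 to 3942, 74 to 895 and 90 to 1957. The split into higher and lower genes was 919 and 516 in *hrde-2* against wild-type, 953 and 323 with library size alone and 540 and 3402 with germline scaling, and between the mutants 391 and 297, 517 and 253, and 11 and 82. In *hrde-1* against wild-type it was 150 and 38, and 115 and 780 with germline scaling. The smallest library held 5801326 counts.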
